A study of Homo sapiens with 12 samples.

Results

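Genes of the lysosome and of autophagy were followed in SHI-1 cells after exposure to DSF, NSM or both. The members were every row of the deposited tables whose name starts with ATP6V0 or ATP6V1 (20 rows) plus 35 listed genes for lysosomal enzymes and membrane proteins, the TFEB family and autophagy, 55 rows of 14866 in all. ATG101 was found under its older symbol C12orf44. Of the 55, 53 reached a normalized count of 10 in at least 3 libraries and were tested.

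The SHI-1 line derives from acute myeloid leukemia and carries MLL-AF6. Cells were exposed for 16 h to DMSO, to DSF (0.3 µM disulfiram, an alcohol-aversion drug, with 1 µM copper), to NSM (5 µM niclosamide, an anthelmintic) or to DSF + NSM at the same doses, with 3 libraries per group from independent experiments. Whether the DMSO and NSM cultures also received copper is not stated in the sources used here, so DSF and copper cannot be told apart. All libraries came from 1 cell line grown alone, and RNA was measured, not protein, lysosomal acidity or autophagic flux.

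Lysosomes digest what reaches them with proteases, glycosidases and lipases that work at acid pH, which the V-ATPase maintains by pumping protons through a membrane sector (V0) driven by a cytosolic ATP-hydrolysing sector (V1). In autophagy, the ULK1 kinase complex and a lipid kinase complex with BECN1 start a membrane sac, ATG8 proteins such as LC3 and GABARAP are coupled to it by ATG5, ATG7 and ATG16L1, and receptors such as SQSTM1 (p62) bring ubiquitylated cargo. The transcription factors TFEB, TFE3 and MITF, held in the cytosol by the kinase mTORC1 when nutrients are plentiful, activate many of these genes through a promoter element called CLEAR.

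RefSeq promoters (GRCh38.p14, 250 bases before to 50 after the start of the gene) were available for 43 of the 55 members and were searched on both strands. The 8-letter CLEAR core TCACGTGA, which contains the E-box CACGTG, was present in 5 of the 43 (11.6%) and in 1.04% of all 27305 promoters and 1.99% of the 9546 promoters of tested genes. The E-box was present in 10 members (23.3%) against 7.43% of all promoters and 10.3% of those of tested genes. TGACNNNGC, the core of the antioxidant response element, was present in 13 members (30.2%) against 13.6% and 15.5%, and TGATGNAA, the core of the element bound by ATF4, in 0 members against 3.67% and 1.64%. These matches describe the letters of the windows and do not show that a factor binds there. The windows of 30 bases around every CLEAR core among the members are shown because they are the sequence feature that the TFEB family is known for. Capitals mark the core, and each window is written 5′ to 3′ on the strand of its gene.
ATP6V1G1, chr9:114587699-114587728, plus strand: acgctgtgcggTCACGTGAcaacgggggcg
LAMP1, chr13:113297199-113297228, plus strand: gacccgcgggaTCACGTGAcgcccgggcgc
LAMP1, chr13:113297226-113297255, plus strand: cgcggcgcagcTCACGTGAcaagcgctgcc
ATP6V0D1, chr16:67481199-67481228, minus strand: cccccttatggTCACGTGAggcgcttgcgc
MCOLN1, chr19:7522571-7522600, plus strand: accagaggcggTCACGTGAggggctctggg
MCOLN1, chr19:7522598-7522627, plus strand: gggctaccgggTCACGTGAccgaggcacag
CTSA, chr20:45891298-45891327, plus strand: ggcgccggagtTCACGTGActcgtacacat

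NEU1, CTSD, CD63, ATP6V0B and ATP6V0E2, all described below, held the shorter E-box without the full core. They did not move alike: on the deposited scaling NEU1 and CTSD were called higher after each treatment and CD63 after NSM and DSF + NSM. ATP6V0B was called in none of the comparisons, and ATP6V0E2 was called lower after NSM and DSF + NSM. Only the windows of NEU1 and CTSD are shown, with the E-box in capitals.
NEU1, chr6:31862930-31862959, minus strand: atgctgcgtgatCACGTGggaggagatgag
CTSD, chr11:1763957-1763986, minus strand: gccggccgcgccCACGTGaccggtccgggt

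Levels are normalized counts, and values of a group are given in the order of replicates 1, 2 and 3. Differences are on the log2(value + 1) scale with their standard error (SE), and a difference was called when the p-value of limma, adjusted by Benjamini-Hochberg over the 13502 genes tested, was under 0.05. The summed values of all genes (in M, mega) came to 13.96 to 14.4 M in the DMSO libraries and to 22.7 to 25.6 M after DSF + NSM. Scaling every library to the same sum therefore moved the median change of all genes after DSF + NSM from 0.03 to -0.74, and after NSM to -0.25. Values under equal sums are given for the main calls that they end or turn against DMSO and for the interaction. NSM replicate 3 stood apart (Spearman correlation across genes 0.952 and 0.959 with the other NSM libraries, 0.981 to 0.996 within the other groups and between NSM replicates 1 and 2), and counts without it are given beside the counts with it. Ribosomal RNA rows took a mean of 2.78% of the values after DMSO, 5.17% after DSF, 5.13% after NSM and 10.9% after DSF + NSM, and the part of this in the results was not tested. All 8 myeloid markers were present, with a summed level of 69793 to 78663 after DMSO, 46237 to 53342 after DSF, 31609 to 43319 after NSM and 37126 to 39420 after DSF + NSM. MPO made up most of this sum, at 54160 to 62640 after DMSO and 14450 to 18630 after NSM. Other markers went the other way after NSM, such as PTPRC (2527 to 2913 after DMSO, 4411 to 7117 after NSM) and SPI1 (4477 to 4668, 5844 to 8813). Of the 8, 2 were called higher and 4 lower after NSM (25.4% and 23.7% of all genes). After DSF + NSM 0 were called higher and 2 lower (28.3% and 24.5% of all genes). Of 6 monocyte maturation markers listed, 5 were tested, of which 3 were higher after each treatment, among them CD14 (54.0 to 64.9 after DMSO and 321 to 431 after DSF), and the part of these shifts in lysosomal gene levels was not tested.

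On the deposited scaling, more members were called higher than lower against DMSO after each treatment, whereas with equal sums this held after DSF alone. After DSF, 16 members rose and 2 fell (30.2% and 3.77% of those tested, where 11.9% and 5.95% of all genes were called), and with equal sums 13 rose and 2 fell (8.95% and 9.24% of all genes). After NSM, 20 rose and 10 fell (37.7% and 18.9%, against 25.4% and 23.7% of all genes), and with equal sums 14 rose and 14 fell (16.4% and 33.4% of all genes). After DSF + NSM, 34 rose and 4 fell (64.2% and 7.55%, against 28.3% and 24.5%), and with equal sums 11 rose and 18 fell, where 11.4% of all genes rose and 56.2% fell. The members' median change after DSF + NSM was 0.68 beside 0.03 over all genes, and -0.11 beside -0.74 with equal sums. Without NSM replicate 3, the calls were 28 higher and 4 lower after DSF, 23 and 12 after NSM, and 40 and 5 after DSF + NSM. The shares of all genes rose as well, to 23.5% higher and 17.6% lower after DSF. They were 31.2% and 28.6% after NSM and 35.2% and 32.4% after DSF + NSM. The DSF count of 18 calls fell to 9 without DMSO replicate 1 or DSF replicate 2, to 10 without DSF replicate 1 and to 11 without DMSO replicate 2. The read-through row described last, which is listed at 0 in every DMSO library, counts among the 16 and the 34, which are 15 and 33 without it. The 3 comparisons share the DMSO libraries.

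**Figure D1:**
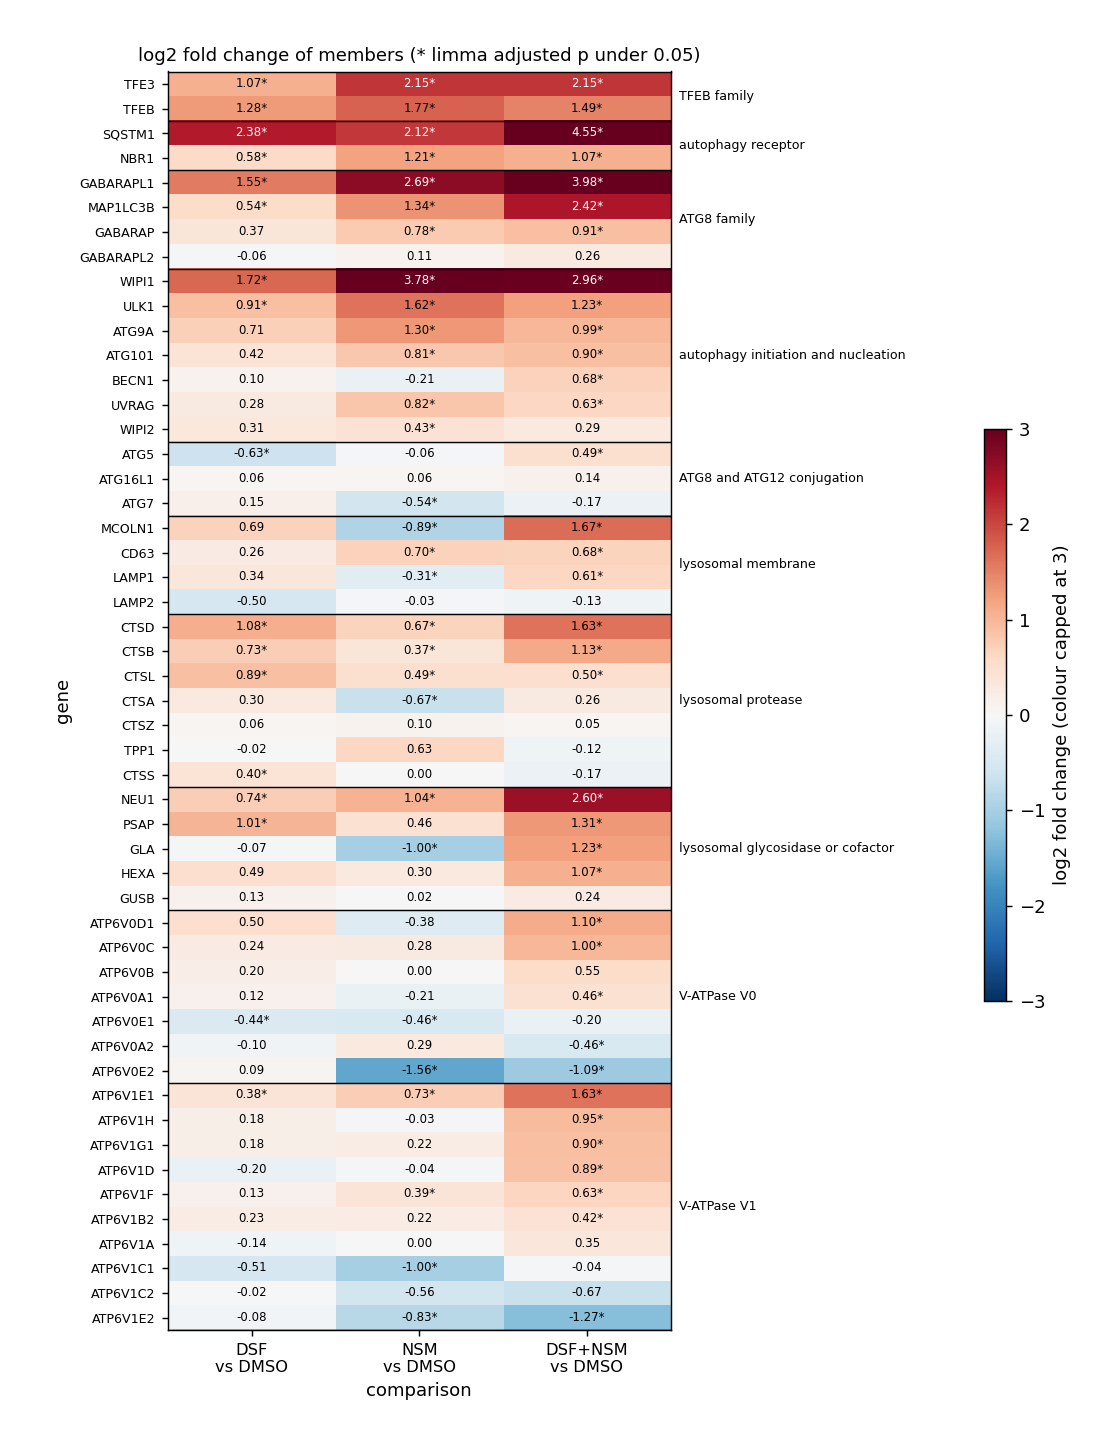
Log2 fold change of each tested member against DMSO after DSF, NSM and DSF + NSM, without the antisense RNA and the read-through gene, ordered by role and, within a role, by the change after DSF + NSM. Colour gives the change on a log2 scale capped at 3 and an asterisk marks a limma call; SQSTM1 and GABARAPL1 have the largest changes after DSF + NSM, and with equal sums the calls in that column, the 2 left-out rows included, become 11 higher and 18 lower.

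Among the receptors, SQSTM1 rose most of all tested members after DSF + NSM, apart from the read-through row described last. SQSTM1 (chr5:179806398-179838078, plus strand) stood at 2119, 2147 and 2076 after DMSO, at 11999, 13717 and 8140 after DSF, at 11238, 9957 and 6868 after NSM, and at 48215, 52576 and 48438 after DSF + NSM. Every treated library lay above every DMSO library, the DSF and NSM libraries overlapped, and the DSF + NSM libraries lay above all others. The changes were 2.38 ± 0.20 after DSF, 2.12 ± 0.20 after NSM and 4.55 ± 0.20 after DSF + NSM (SE, n = 3 libraries per group, limma adjusted p = 9.45e-06, 5.08e-06 and 5.56e-09), and they were called with equal sums as well. The sum of the changes with DSF and with NSM differed from the change with both by 0.06 ± 0.28 on the log2 scale (limma adjusted p = 0.902). Its share of all values went from a mean of 0.0149% after DMSO to 0.204% after DSF + NSM. In GENCODE, 1582 of its 7535 exon bases overlap MRNIP on the other strand, and the library kit does not mark strand, so reads there cannot be assigned to one gene. NBR1, a receptor related to SQSTM1, had means of 1036 after DMSO, 1550 after DSF, 2405 after NSM and 2185 after DSF + NSM. NBR1 rose by 1.21 ± 0.13 after NSM and 1.07 ± 0.13 after DSF + NSM, the latter not called with equal sums (0.28), and its call after DSF was lost without replicate 1 or 2 of DMSO or of DSF (limma adjusted p up to 0.0673).

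The ATG8 family moved unevenly: GABARAPL1 and MAP1LC3B rose in all 3 comparisons, GABARAP after NSM and DSF + NSM, and GABARAPL2 in none. GABARAPL1 (chr12:10212458-10223128, plus strand) stood at 259, 253 and 238 after DMSO, 700, 909 and 623 after DSF, 1676, 1595 and 1575 after NSM, and 3953, 3853 and 4073 after DSF + NSM. The 4 groups did not overlap, in the order DMSO, DSF, NSM, DSF + NSM. GABARAPL1 changed by 1.55 ± 0.14, 2.69 ± 0.14 and 3.98 ± 0.14 (limma adjusted p = 1.43e-05, 1.08e-07 and 8.62e-10), and by 3.20 after DSF + NSM with equal sums. MAP1LC3B, the gene of LC3B (chr16:87383953-87404779, plus strand), stood at 947, 1046 and 981 after DMSO, 1431, 1531 and 1372 after DSF, 2225, 2347 and 3053 after NSM, and 5284, 5217 and 5374 after DSF + NSM. Its groups followed the same order without overlap. MAP1LC3B changed by 0.54 ± 0.13, 1.34 ± 0.13 and 2.42 ± 0.13 (limma adjusted p = 0.0127, 5.47e-06 and 3.01e-08), with 1.63 after DSF + NSM under equal sums, and the DSF call was lost without DMSO replicate 1 or DSF replicate 2 (limma adjusted p up to 0.0726). Its near copy MAP1LC3B2 was listed at 0.884 to 40.0 over the 12 libraries. GABARAP rose by 0.78 ± 0.12 after NSM and 0.91 ± 0.12 after DSF + NSM, the latter falling to 0.13 and not called with equal sums. GABARAPL2 changed by 0.26 ± 0.11 after DSF + NSM, which was not called (limma adjusted p = 0.058), was called without NSM replicate 3 (0.0129) and with equal sums was -0.52 and called lower.

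**Figure D2:**
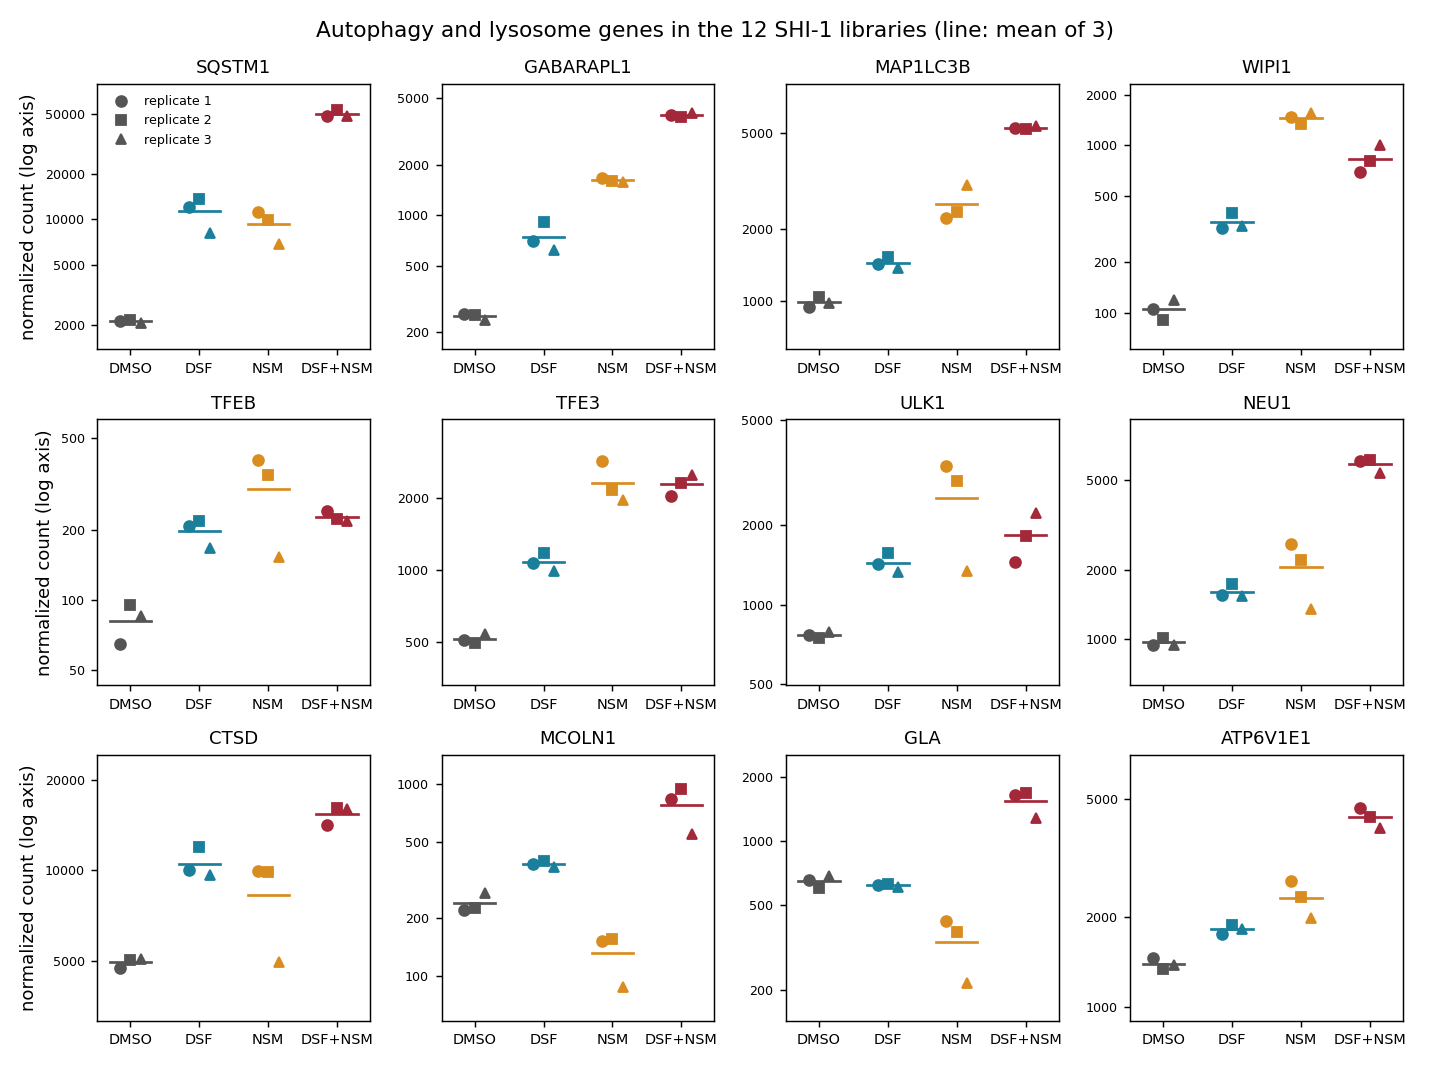
Normalized count of 12 members in each library, on a log axis that differs between panels, by treatment group; symbols mark replicates 1 to 3 and lines the mean of the 3 libraries. SQSTM1, GABARAPL1, MAP1LC3B, NEU1, MCOLN1, GLA and ATP6V1E1 are highest after DSF + NSM in all 3 libraries (with equal sums, all of these except MCOLN1), WIPI1 is highest after NSM, and MCOLN1 and GLA are lowest after NSM.

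The genes of the TFEB family that could be measured rose after each treatment. TFEB (chr6:41683978-41736259, minus strand) stood at 64.7, 94.9 and 85.4 after DMSO, 208, 218 and 168 after DSF, 400, 348 and 154 after NSM, and 242, 224 and 220 after DSF + NSM. Every treated library lay above every DMSO library, and NSM replicate 3 lay below the other NSM libraries. TFEB changed by 1.28 ± 0.30 after DSF, 1.77 ± 0.30 after NSM and 1.49 ± 0.30 after DSF + NSM (limma adjusted p = 0.0129, 0.000428 and 0.0012). The change after NSM was 2.20 without NSM replicate 3, the DSF call was lost without DMSO replicate 1 or DSF replicate 1 or 2 (limma adjusted p up to 0.0662), and with equal sums the DSF + NSM change was 0.71 and not called. TFE3 (chrX:49028726-49043410, minus strand) stood at 510, 494 and 542 after DMSO, 1070, 1184 and 993 after DSF, 2858, 2161 and 1964 after NSM, and 2043, 2312 and 2516 after DSF + NSM. The NSM and DSF + NSM libraries overlapped, above those of DSF, which lay above those of DMSO. TFE3 changed by 1.07 ± 0.15, 2.15 ± 0.15 and 2.15 ± 0.15 (limma adjusted p = 0.000591, 6.37e-07 and 2.78e-07) and all 3 were called with equal sums. MITF was near the limit of the measurement, at 0.937, 4.01 and 0 after DMSO, 5.66, 1.06 and 6.94 after DSF, 1.04, 2.06 and 1.36 after NSM, and 7.43, 8.19 and 2.35 after DSF + NSM. It was not tested.

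Genes of autophagy initiation and nucleation were mostly higher after NSM: 6 of 7 rose and none fell (85.7% higher, against 25.4% of all genes). After DSF + NSM 6 rose as well (85.7%, against 28.3% of all genes), of which 1 remained called higher with equal sums, WIPI1, where 11.4% of all genes rose. After NSM, 4 of the 7 were called higher with equal sums and BECN1 was called lower, where 16.4% of all genes rose and 33.4% fell. WIPI1, which binds the lipid phosphatidylinositol 3-phosphate on the growing sac (chr17:68420948-68457513, minus strand), stood at 105, 91.0 and 119 after DMSO, 319, 392 and 330 after DSF, 1465, 1335 and 1552 after NSM, and 688, 802 and 1005 after DSF + NSM. The groups did not overlap, and NSM alone gave the highest values. WIPI1 changed by 1.72 ± 0.17 after DSF, 3.78 ± 0.17 after NSM and 2.96 ± 0.17 after DSF + NSM (limma adjusted p = 3.58e-05, 3.47e-08 and 5.88e-08), and the fall from NSM to DSF + NSM of -0.82 ± 0.17 was called as well (limma adjusted p = 0.00256). ULK1, the kinase that starts autophagy (chr12:131894622-131923150, plus strand), stood at 766, 745 and 786 after DMSO, 1428, 1564 and 1327 after DSF, 3337, 2918 and 1341 after NSM, and 1449, 1811 and 2222 after DSF + NSM. NSM replicate 3 lay among the DSF libraries and the other NSM libraries lay above all others. ULK1 rose by 1.62 ± 0.27 after NSM (2.03 without NSM replicate 3) and by 1.23 ± 0.27 after DSF + NSM, which was 0.45 and not called with equal sums, while its call after DSF was kept without any NSM library or DSF + NSM replicate 1 or 3 and lost with equal sums and without any of the other 7 (limma adjusted p up to 0.143).

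ATG9A, which moves lipids between the leaflets of the sac, had means of 360 after DMSO, 591 after DSF, 930 after NSM and 717 after DSF + NSM and rose by 1.30 ± 0.23 after NSM. ATG101, a partner of ULK1, rose by 0.81 ± 0.22 after NSM and UVRAG, a partner of BECN1, by 0.82 ± 0.13. With equal sums ATG101 was at 0.54 after NSM and not called. After DSF + NSM these 3 genes had changes of 0.99, 0.90 and 0.63, all called, and of 0.21, 0.11 and -0.15 with equal sums, none called. WIPI2 was called higher after NSM (0.43 ± 0.16), a call kept only without NSM replicate 3 or DSF + NSM replicate 3 and lost with equal sums and without any of the other 10 libraries (limma adjusted p up to 0.157). BECN1 differed from the rest of the group, with 1196 ± 41.4 after DMSO, 1278 ± 39.6 after DSF, 1047 ± 177 after NSM and 1921 ± 80.3 after DSF + NSM (SD, n = 3). Its NSM change of -0.21 was not called and was -0.34 and called without NSM replicate 3. BECN1 rose by 0.68 ± 0.13 after DSF + NSM and was at -0.10, not called, with equal sums.

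Of the genes of the conjugation machinery, ATG5 fell after DSF and rose after DSF + NSM, ATG7 fell after NSM, and ATG16L1 was not called. ATG5, which is joined to ATG12 (chr6:106045423-106325791, minus strand), stood at 676, 710 and 636 after DMSO, 440, 410 and 460 after DSF, 512, 610 and 867 after NSM, and 972, 848 and 1017 after DSF + NSM. The DSF libraries lay below all others, and those of NSM and DSF + NSM overlapped through NSM replicate 3. ATG5 changed by -0.63 ± 0.18 after DSF, a call lost without any one of the 3 DMSO or 3 DSF libraries (limma adjusted p = 0.0284, up to 0.12 without 1 library), and by 0.49 ± 0.18 after DSF + NSM, a call lost without any 1 DMSO library or DSF + NSM replicate 1 or 3 (limma adjusted p = 0.0339, up to 0.102). With equal sums the latter was -0.30 and not called. ATG7, the enzyme that activates ATG8 proteins, had means of 1324, 1473, 921 and 1174 in the order DMSO, DSF, NSM and DSF + NSM, and changed by -0.54 ± 0.14 after NSM.

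The lysosomal proteases divided into 3 that rose with every treatment and 4 that did not. CTSD, the aspartic protease cathepsin D (chr11:1752752-1764573, minus strand), stood at 4736, 5047 and 5075 after DMSO, 9989, 11905 and 9628 after DSF, 9944, 9832 and 4949 after NSM, and 14156, 16052 and 15941 after DSF + NSM. NSM replicate 3 lay among the DMSO libraries, and the DSF + NSM libraries lay above all others. CTSD changed by 1.08 ± 0.22 after DSF, 0.67 ± 0.22 after NSM (1.00 without NSM replicate 3) and 1.63 ± 0.22 after DSF + NSM (limma adjusted p = 0.00578, 0.0233 and 5.37e-05), with 0.85 after DSF + NSM under equal sums, still called. The NSM call was lost with equal sums (0.40) and without any 1 DMSO library or NSM replicate 1 or 2 (limma adjusted p up to 0.0937). CTSB, a cysteine protease, stood at 1782, 1685 and 1744 after DMSO, 2911, 3103 and 2664 after DSF, 2545, 2236 and 1990 after NSM, and 3752, 3844 and 3798 after DSF + NSM. The 4 groups did not overlap, and CTSB changed by 0.73 ± 0.11, 0.37 ± 0.11 and 1.13 ± 0.11, where the NSM call was lost with equal sums (0.10) and without DMSO replicate 2 or NSM replicate 1 (limma adjusted p = 0.0173, up to 0.0642).

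CTSL, a related cysteine protease (chr9:87724051-87731469, plus strand), stood at 448, 424 and 408 after DMSO, 746, 865 and 770 after DSF, 586, 551 and 665 after NSM, and 671, 568 and 580 after DSF + NSM. The DSF libraries were highest, and those of NSM and DSF + NSM overlapped. CTSL changed by 0.89 ± 0.13, 0.49 ± 0.13 and 0.50 ± 0.13 (limma adjusted p = 0.000834, 0.00845 and 0.00648), and with equal sums the NSM change was 0.22 and the DSF + NSM change turned to -0.28, neither of them called. CTSA, which protects NEU1 in a complex, had means of 2118, 2616, 1342 and 2548 in the order DMSO, DSF, NSM and DSF + NSM, and changed by -0.67 ± 0.14 after NSM. CTSS was called higher after DSF (0.40 ± 0.13, limma adjusted p = 0.0485), a call kept only without NSM replicate 1 or 3 or DSF + NSM replicate 3, and lost with equal sums and without any of the other 9 libraries (up to 0.187). CTSZ and TPP1, a serine protease, were not called, and TPP1 stood at 6187, 6693 and 19388 after NSM against 5859 to 6211 after DMSO. Its NSM change of 0.63 ± 0.32 was 0.10 without NSM replicate 3.

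Among glycosidases and their cofactor, NEU1 had the largest change of the lysosomal members after DSF + NSM, and GLA moved in opposite directions after NSM and after DSF + NSM. NEU1, a sialidase (chr6:31857659-31862905, minus strand), stood at 938, 1009 and 941 after DMSO, 1549, 1732 and 1546 after DSF, 2606, 2213 and 1348 after NSM, and 6013, 6123 and 5363 after DSF + NSM. The DSF + NSM libraries lay above all others and every DMSO library below all others. NEU1 changed by 0.74 ± 0.19 after DSF, 1.04 ± 0.19 after NSM and 2.60 ± 0.19 after DSF + NSM (limma adjusted p = 0.0213, 0.00081 and 4.78e-07), with 1.81 under equal sums for the last, and the DSF call was lost without any 1 DMSO library or DSF replicate 1 or 2 (limma adjusted p up to 0.098). GLA, alpha-galactosidase A (chrX:101393273-101408012, minus strand), stood at 657, 605 and 689 after DMSO, 623, 628 and 607 after DSF, 421, 375 and 215 after NSM, and 1640, 1686 and 1288 after DSF + NSM. The DMSO and DSF libraries overlapped, the NSM libraries lay below and the DSF + NSM libraries above all others. GLA changed by -0.07 ± 0.21 after DSF, which was not called, fell by 1.00 ± 0.21 after NSM and rose by 1.23 ± 0.21 after DSF + NSM (limma adjusted p = 0.861, 0.00209 and 0.000421), and with equal sums the last was 0.45 and not called. In GENCODE 557 of its 6195 exon bases overlap RPL36A on the other strand. PSAP, the precursor of the saposins that help enzymes reach lipids, had means of 4950, 10017, 7101 and 12244 in the order DMSO, DSF, NSM and DSF + NSM, and rose by 1.01 ± 0.22 after DSF and 1.31 ± 0.22 after DSF + NSM. Its NSM change of 0.46 was not called and was 0.78 and called without NSM replicate 3. HEXA, a subunit of beta-hexosaminidase, rose by 1.07 ± 0.20 after DSF + NSM, and GUSB was not called. With equal sums PSAP (0.52) and HEXA (0.28) were not called after DSF + NSM.

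Among lysosomal membrane proteins, MCOLN1 and LAMP1 were called lower after NSM and higher after DSF + NSM, as GLA was. These 3 are 5.66% of the tested members, where 1.44% of all genes showed the pattern. MCOLN1, the calcium channel TRPML1 (chr19:7522624-7534009, plus strand), stood at 220, 224 and 270 after DMSO, 382, 398 and 369 after DSF, 152, 155 and 86.9 after NSM, and 840, 942 and 551 after DSF + NSM. The groups did not overlap, in the order NSM, DMSO, DSF and DSF + NSM. MCOLN1 changed by 0.69 ± 0.24 after DSF, which was not called, by -0.89 ± 0.24 after NSM and by 1.67 ± 0.24 after DSF + NSM (limma adjusted p = 0.0689, 0.00897 and 0.000106), and with equal sums the last was 0.89 and called. The DSF change of MCOLN1 was called without NSM replicate 3 (limma adjusted p = 0.00374) and with only the groups compared (3.84e-05), and not with equal sums. LAMP1, an abundant glycoprotein of the lysosomal membrane (chr13:113297239-113323672, plus strand), stood at 3313, 3488 and 3752 after DMSO, 4439, 4568 and 4314 after DSF, 3153, 2816 and 2557 after NSM, and 5493, 5953 and 4746 after DSF + NSM. Its groups had the same order, without overlap. LAMP1 changed by -0.31 ± 0.12 after NSM (limma adjusted p = 0.0456), a call kept only without NSM replicate 1 or DSF + NSM replicate 2 or 3 and lost without any of the other 9 libraries (up to 0.149), and by 0.61 ± 0.12 after DSF + NSM, which turned to -0.17, not called, with equal sums. CD63, a tetraspanin of lysosomes and secreted vesicles, rose by 0.70 ± 0.10 after NSM and 0.68 ± 0.10 after DSF + NSM, the latter -0.11 and not called with equal sums. LAMP2 was not called in any comparison in the fit of all libraries. Its DSF libraries (1456 to 1565) nevertheless lay below those of DMSO (1990 to 2314). That change of -0.50 ± 0.23 was called without NSM replicate 3 (limma adjusted p = 0.00577) and with only the groups compared (1.69e-05), and not with equal sums.

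In the fit of all libraries on the deposited scaling, few V-ATPase subunit genes were called after DSF. They divided after NSM and were mostly higher after DSF + NSM. Of 17 tested subunit genes, 1 rose and 1 fell after DSF, 2 rose and 4 fell after NSM, and 9 rose and 3 fell after DSF + NSM. The shares after DSF were 5.88% higher and 5.88% lower (11.9% and 5.95% of all genes). They were 11.8% and 23.5% after NSM (25.4% and 23.7% of all genes), and 52.9% and 17.6% after DSF + NSM (28.3% and 24.5% of all genes). With equal sums 1 rose (ATP6V1E1) and 7 fell after DSF + NSM, where 11.4% of all genes rose and 56.2% fell. After NSM 1 rose and 7 fell with equal sums as well, where 16.4% and 33.4% of all genes did. Without NSM replicate 3, on the deposited scaling, 3 subunit genes rose and 2 fell after DSF (23.5% and 17.6% of all genes). The counts were then 3 and 6 after NSM (31.2% and 28.6% of all genes), and 11 and 4 after DSF + NSM (35.2% and 32.4%). The 2 subunit calls after DSF were each lost without some libraries. ATP6V0D1 (0.50 ± 0.20) and ATP6V1C1 (-0.51 ± 0.23) were not called after DSF in the fit of all libraries or with equal sums. Both were called without NSM replicate 1 or 3 and with only the groups compared (limma adjusted p = 3.33e-05 and 9.9e-05). With only the groups compared, ATP6V0C, ATP6V1B2 and ATP6V1G1 were called higher after DSF as well. ATP6V1E1, a stalk subunit of V1 (chr22:17592136-17628749, minus strand), stood at 1454, 1342 and 1384 after DMSO, 1757, 1879 and 1820 after DSF, 2646, 2336 and 1981 after NSM, and 4681, 4338 and 3986 after DSF + NSM. Its groups did not overlap, in the order DMSO, DSF, NSM and DSF + NSM. ATP6V1E1 changed by 0.73 ± 0.12 after NSM and 1.63 ± 0.12 after DSF + NSM (limma adjusted p = 0.000419 and 5.17e-07), and its DSF change of 0.38 ± 0.12 was called in the fit of all libraries (limma adjusted p = 0.0482) and lost with equal sums and without any library other than NSM replicate 1 or 3 or DSF + NSM replicate 3 (up to 0.169). With equal sums ATP6V1E1 was at 0.85 after DSF + NSM.

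Other subunits that rose after DSF + NSM were, in V0, ATP6V0D1 (1.10 ± 0.20) and the proteolipid ATP6V0C (1.00 ± 0.13), and in V1 ATP6V1H (0.95 ± 0.12), ATP6V1G1 (0.90 ± 0.14), ATP6V1D (0.89 ± 0.13), ATP6V1F (0.63 ± 0.13) and the nucleotide-binding subunit ATP6V1B2 (0.42 ± 0.11). With equal sums these changes were 0.32, 0.22, 0.16, 0.12, 0.10, -0.15 and -0.36, and among them ATP6V1B2 was called, as lower. The NSM call of ATP6V1F (0.39) was lost with equal sums (0.12). ATP6V0A1 was called higher (0.46 ± 0.18, limma adjusted p = 0.0493), a call kept only without NSM replicate 1 or 3 and lost without any of the other 10 libraries (up to 0.15) and with equal sums (-0.32). The catalytic subunit ATP6V1A stood at 786, 887 and 969 after DMSO and at 987, 1002 and 1410 after DSF + NSM and was not called (0.35 ± 0.27, and -0.43 with equal sums), and was called without NSM replicate 3 (limma adjusted p = 0.0309). ATP6V0B was not called either (0.55, and -0.23 with equal sums), and stood at 3562, 3651 and 921 after NSM against 1980 to 2570 after DMSO. The NSM change of ATP6V0B was 0.65 and called without NSM replicate 3.

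**Figure D3:**
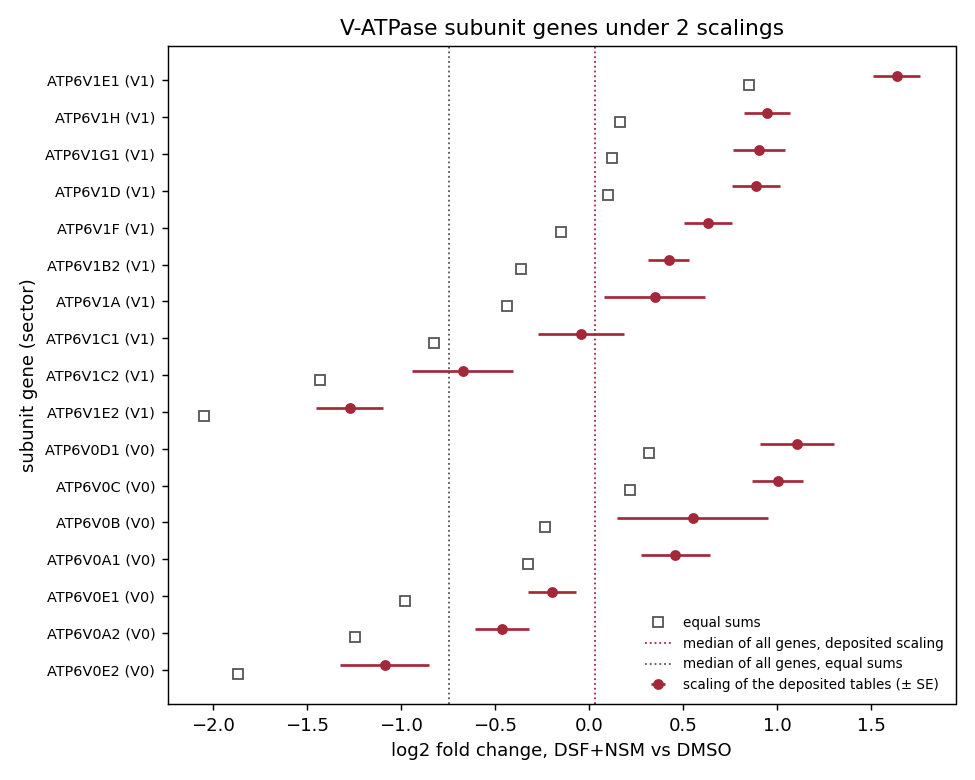
Log2 fold change of each tested V-ATPase subunit gene after DSF + NSM against DMSO, by sector; filled points with bars give the deposited scaling with its SE, open squares the value with every library scaled to the same sum, and dotted lines the median of all genes (0.03 and -0.74). ATP6V1E1 is higher under both scalings, whereas 8 other subunits called higher on the deposited scaling are not called higher with equal sums.

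Subunit genes that fell in the presence of NSM included ATP6V0E2 and ATP6V1E2, each a paralog of another subunit gene. ATP6V0E2 (chr7:149872968-149891204, plus strand) stood at 452, 425 and 465 after DMSO, 462, 465 and 499 after DSF, 163, 191 and 110 after NSM, and 261, 242 and 146 after DSF + NSM. Both groups with NSM lay below the other groups. ATP6V0E2 changed by -1.56 ± 0.24 after NSM and -1.09 ± 0.24 after DSF + NSM (limma adjusted p = 0.000178 and 0.00196) and by 0.09 after DSF. The row of its antisense RNA, ATP6V0E2-AS1, stood at 57.4, 57.4 and 49.0 after DMSO, 49.7, 57.7 and 74.1 after DSF, 7.85, 10.7 and 3.84 after NSM, and 10.5, 10.8 and 2.22 after DSF + NSM. The genes share 864 exon bases on opposite strands and the kit does not mark strand, so their reads cannot be told apart there. Its paralog ATP6V0E1 stood at 1842, 1814 and 1518 after DMSO, 1232, 1193 and 1385 after DSF, 1154, 1234 and 1374 after NSM, and 1630, 1492 and 1388 after DSF + NSM. ATP6V0E1 changed by -0.44 ± 0.13 after DSF, a call lost without replicate 1 or 2 of DMSO or of DSF (limma adjusted p = 0.033, up to 0.143), and by -0.46 ± 0.13 after NSM (0.01), and its change after DSF + NSM was -0.20, not called, and -0.98 and called with equal sums.

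ATP6V1E2, the paralog of ATP6V1E1, stood at 202, 181 and 174 after DMSO, 181, 161 and 186 after DSF, 91.7, 130 and 93.8 after NSM, and 77.1, 71.5 and 80.0 after DSF + NSM. The libraries with NSM lay below the rest, and ATP6V1E2 changed by -0.83 ± 0.18 after NSM and -1.27 ± 0.18 after DSF + NSM (limma adjusted p = 0.00201 and 7.44e-05), opposite in sign to ATP6V1E1. ATP6V1C1, the V1 subunit that links the sectors, had means of 765, 536, 400 and 747 in the order DMSO, DSF, NSM and DSF + NSM, and fell by 1.00 ± 0.23 on the log2 scale after NSM. ATP6V0A2 stood at 397, 458 and 452 after DMSO, 378, 425 and 415 after DSF, 469, 503 and 632 after NSM, and 312, 304 and 332 after DSF + NSM. The NSM libraries were highest and the DSF + NSM libraries lowest, with changes of 0.29 ± 0.15 after NSM, not called, and -0.46 ± 0.15 after DSF + NSM, a call lost without DMSO replicate 2 or 3 or DSF + NSM replicate 2 (limma adjusted p = 0.0178, up to 0.0692). The V1 paralog ATP6V1G2 stood at 1.96 to 20.3 in the 12 libraries and was not tested. The read-through row ATP6V1G2-DDX39B was listed at 0 in all 3 DMSO libraries, at 35.9, 41.8 and 34.9 after DSF, at 0, 0 and 46.0 after NSM, and at 103, 125 and 59.9 after DSF + NSM. It passed the filter only through treated libraries and shares 2079 of its 2372 exon bases with DDX39B, so no fold is given.

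The interaction of DSF and NSM was the difference between the change from DSF to DSF + NSM and the change from DMSO to NSM. It was called for 23 members, 14 higher and 9 lower (12.1% and 14.0% of all genes), and with equal sums for 5 higher and 16 lower (6.78% and 28.6% of all genes). There were 13 to 15 calls without any 1 DMSO or DSF library or DSF + NSM replicate 1 or 2, and 32 without NSM replicate 3 (21.5% higher and 24.3% lower of all genes). GLA (2.30 ± 0.30), MCOLN1 (1.88 ± 0.34), ATP6V1C1 (1.47 ± 0.32), ATG5 (1.17 ± 0.25), ATP6V1D (1.12 ± 0.18), ATP6V0E1 (0.70 ± 0.18), ATP6V1H (0.80 ± 0.17) and BECN1 (0.79 ± 0.18) were higher in every fit that left out 1 library. WIPI1 (-2.53 ± 0.24), TFE3 (-1.08 ± 0.21), CTSL (-0.88 ± 0.19) and NBR1 (-0.72 ± 0.19) were lower in every such fit. With equal sums GLA, MCOLN1, ATP6V1C1, ATG5 and ATP6V1D remained called higher, the 4 lower members remained called lower, and the all-gene median interaction was -0.40. The calls of ATP6V0E1 (0.28), ATP6V1H (0.38), BECN1 (0.38), ATP6V0D1 (0.57), NEU1 (0.40), CTSA (0.21), LAMP1 (0.17), ATP6V1E1 (0.11) and MAP1LC3B (0.11) were lost with equal sums. NSM raised WIPI1 by 3.78 on the log2 scale from DMSO and by 1.25 from DSF, and TFE3 by 2.15 and 1.08. GLA fell by 1.00 from DMSO and rose by 1.30 from DSF, and for MCOLN1 the changes were -0.89 and 0.98.

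**Figure D4:**
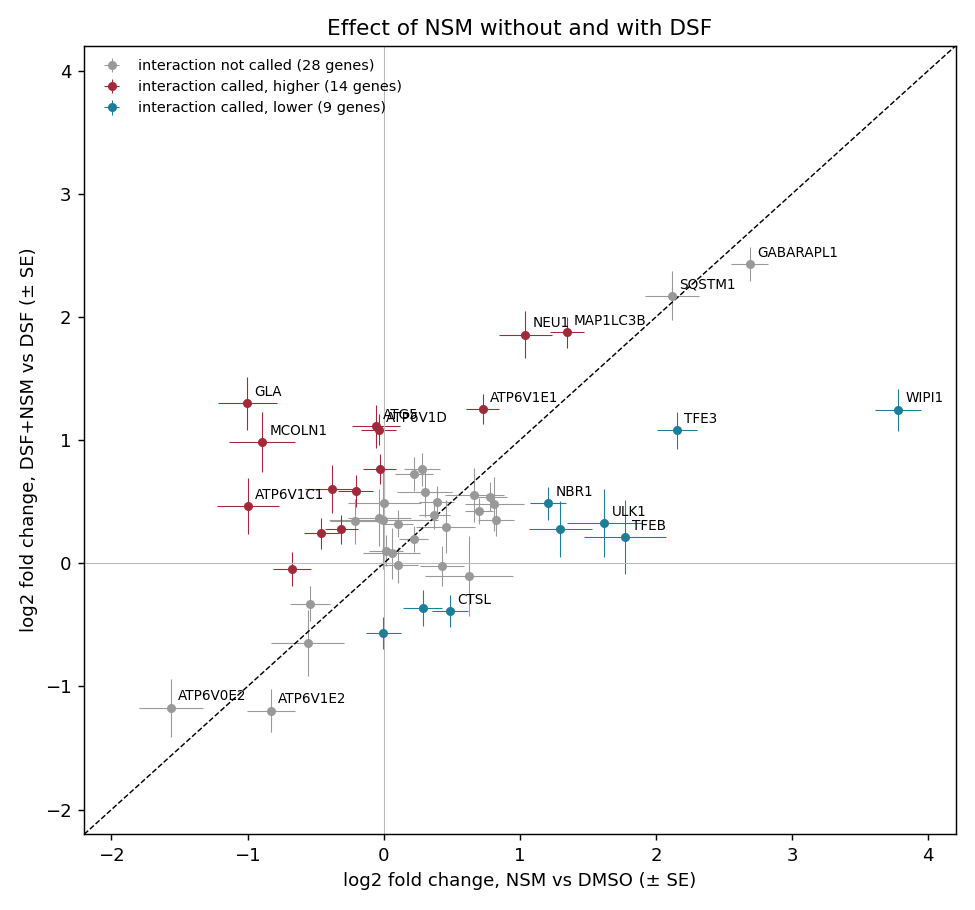
Log2 fold change of each tested member, without the antisense RNA and the read-through gene, from DMSO to NSM (x axis) and from DSF to DSF + NSM (y axis), with SE bars; the dashed line marks equal changes and colours mark members whose interaction was called. GLA and MCOLN1 lie left of 0 and above 0, WIPI1 and TFE3 lie below the line, and SQSTM1 lies on it; with equal sums GLA (1.89), MCOLN1 (1.46), WIPI1 (-2.95) and TFE3 (-1.49) keep the direction of their interaction.

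From DSF to DSF + NSM, 24 members rose and 5 fell (21.7% and 21.4% of all genes), and 9 rose and 18 fell with equal sums (7.3% and 53.8% of all genes). Without NSM replicate 3 that total of 29 became 45 (29.9% higher and 30.2% lower of all genes). From NSM to DSF + NSM, 23 rose and 2 fell (20.3% and 18.3%), and 14 rose and 18 fell with equal sums (9.82% and 44.9% of all genes). The largest rises were in GABARAPL1 (2.43 ± 0.14) and SQSTM1 (2.17 ± 0.20) from DSF, and in MCOLN1 (2.57 ± 0.24) and SQSTM1 (2.44 ± 0.20) from NSM. ATP6V1E2 (-1.20 ± 0.18) and ATP6V0E2 (-1.17 ± 0.24) fell most from DSF, and WIPI1 (-0.82 ± 0.17) and ATP6V0A2 (-0.75 ± 0.15) from NSM, leaving out the antisense and read-through rows.

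Over the 4 groups, all 3 DSF + NSM libraries lay above the other 9 libraries in 22 tested members (41.5%), where 11.8% of all genes did. With equal sums this held for 6 members, ATP6V1E1, GLA, NEU1, SQSTM1, MAP1LC3B and GABARAPL1 (11.3%, against 4.93% of all genes). The NSM libraries were highest for ATP6V0A2, UVRAG and WIPI1 (5.66%, against 8.13% of all genes). The DSF libraries were highest for CTSL, CTSS and ATG7 (5.66%, against 5.9% of all genes), and the DMSO libraries for 0 members, against 10.3% of all genes. Called higher after each of DSF, NSM and DSF + NSM were 13 members (24.5%, against 6.83% of all genes), namely ATP6V1E1, CTSB, CTSD, CTSL, NEU1, TFEB, TFE3, SQSTM1, NBR1, MAP1LC3B, GABARAPL1, ULK1 and WIPI1. Called in none of the comparisons were 8 (15.1%, against 22.9% of all genes), namely ATP6V0B, ATP6V1A, ATP6V1C2, LAMP2, CTSZ, TPP1, GUSB and ATG16L1.

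Of the 5 members with a CLEAR core shown above, ATP6V1G1, LAMP1, ATP6V0D1 and MCOLN1 were called higher after DSF + NSM. CTSA was not (0.26 ± 0.14, limma adjusted p = 0.134, and called without NSM replicate 3 at 0.0255). Of all 43 members with a promoter, 28 were called higher after DSF + NSM, as were 28.3% of all genes. With equal sums only MCOLN1 of the 5 was called higher, and CTSA was called lower. After NSM alone MCOLN1, LAMP1 and CTSA were called lower, where 23.7% of all genes were, and ATP6V1G1 and ATP6V0D1 were not called. The LAMP1 call carries the limits given above. A link of the CLEAR core or of the TFEB family to these changes was not tested.

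Other genes of the pathway that are not members were counted in lists. Of 34 other lysosomal enzymes and cofactors, 6 rose and 0 fell after DSF, 9 rose and 8 fell after NSM, and 9 rose and 10 fell after DSF + NSM. After DSF these are 17.6% higher and 0.0% lower, where 11.9% and 5.95% of all genes were called. They are 26.5% higher and 23.5% lower after NSM and 26.5% and 29.4% after DSF + NSM, near the shares of all genes (25.4% and 23.7%, and 28.3% and 24.5%). With equal sums 2 of them rose and 20 fell after DSF + NSM, where 11.4% of all genes rose and 56.2% fell. Of 25 other lysosomal membrane and sorting genes, 10 rose and 4 fell after DSF + NSM (40.0% and 16.0%), and 3 rose and 13 fell with equal sums. Of 28 other autophagy core genes, 12 rose and 5 fell after NSM (42.9% and 17.9%) and 14 rose and 4 fell after DSF + NSM, and 4 rose and 10 fell after DSF + NSM with equal sums. Of 11 other autophagy receptors, 8 rose and 0 fell after NSM (72.7% and 0.0%) and 5 rose and 1 fell after DSF + NSM, or 4 and 4 with equal sums. Of 29 genes that control mTORC1 and TFEB, 7 rose and 8 fell after NSM (24.1% and 27.6%) and 10 rose and 7 fell after DSF + NSM (34.5% and 24.1%), or 5 and 15 with equal sums. SESN2, an inhibitor of mTORC1, rose by 2.06 ± 0.24, 2.91 ± 0.24 and 4.66 ± 0.24 after DSF, NSM and DSF + NSM. DDIT4, which also inhibits mTORC1, rose by 1.00 ± 0.21, 2.11 ± 0.21 and 1.67 ± 0.21. RRAGD, a lysosomal GTPase, rose by 0.87 ± 0.15, 1.29 ± 0.15 and 1.51 ± 0.15.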

How the data were processed

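RNA of 12 libraries (3 per group) was enriched for poly(A) and sequenced. The authors deposited normalized counts per gene (unit signal), which need not be whole: between 32.2% and 32.9% of the values of a library were whole multiples of its step at a tolerance of 0.01, so reads were not recovered and no count test was run. Per the labels, bcl2fastq 2.19, Trimmomatic, Bowtie2, Picard, featureCounts and DESeq2 were used with hg38, whereas the study's methods name STAR and Salmon, so the counting is uncertain. Normalization ran over 24 libraries per the deposited header, and 12 were analysed. The labels and the study's supplement name different media.

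Genes at 10 or more in at least 3 libraries were tested with limma 3.58.1 (R 4.3.3, trend and robust empirical Bayes) on log2(value + 1) in 1 fit of 12 libraries, without a replicate block, and p-values were adjusted by Benjamini-Hochberg over 13502 genes. Tested on simulated data with these 13502 genes, DSF against DMSO recovered 53% of changes of 1 and 88% of changes of 2 (log2), with 5.37% false calls, and DSF + NSM against DMSO 45% and 86%, with 7.09% false calls. The simulation changed a small part of the genes, in the treated group alone, with normally distributed noise. Many more genes were called in the data, so these rates need not hold for it. The number of libraries limits the precision. Libraries were of independent experiments, and the estimated depth was 10.2 to 19.0 M reads. Members and lists were chosen with earlier results of these data known. Any member may be named; values of every library are given for the TFEB family, SQSTM1, MAP1LC3B, GABARAPL1, WIPI1, ULK1, MCOLN1, LAMP1, CTSB, CTSD and CTSL and for the 2 largest called rises and falls of each comparison with a mean of at least 50, and others were added after their values were seen. 1 gene that the rule names among the other lists is not reported here. Alternatives were another normalization, equal sums, other pseudocounts, no filter, fewer groups, library weights, leaving out each library, and a replicate block.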

Additional observations from a re-analysis of the deposited data

Results flagged for a closer look

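In 23 members NSM had another effect in the presence of DSF than in its absence, by limma's interaction term (adjusted p under the threshold over all genes, n = 3 libraries per group). The 14 higher and 9 lower are 26.4% and 17.0% of tested members, where 12.1% and 14.0% of all genes were called. The values are the log2 change from DSF to DSF + NSM less that from DMSO to NSM. Among V-ATPase subunits they were 0.98 for ATP6V0D1, 0.70 for ATP6V0E1, 1.47 for ATP6V1C1, 1.12 for ATP6V1D, 0.52 for ATP6V1E1, 0.80 for ATP6V1H and -0.65 for ATP6V0A2. Among lysosomal members they were 2.30 for GLA, 1.88 for MCOLN1, 0.82 for NEU1, 0.63 for CTSA, 0.59 for LAMP1, -0.88 for CTSL and -0.56 for CTSS. In the TFEB family they were -1.56 for TFEB and -1.08 for TFE3. Among autophagy members they were 1.17 for ATG5, 0.79 for BECN1, 0.53 for MAP1LC3B, -0.72 for NBR1, -1.02 for ATG9A, -1.29 for ULK1 and -2.53 for WIPI1.

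With equal sums 5 members were called higher and 16 lower for the interaction (6.78% and 28.6% of all genes). LAMP1 (0.17) and ATP6V1E1 (0.11) were among the calls lost there. Of the 23 calls, 12 held without any 1 library. TFEB was lost without DMSO replicate 1 (limma adjusted p = 0.0504) and MAP1LC3B without any library other than NSM replicate 3 (up to 0.115).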

How the results depend on the processing

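Another median-of-ratios normalization, no filter and pseudocounts of 0.1 and 10 left between 312 and 316 of the 318 values on the same side of the threshold with the same direction. With every library scaled to the same sum, 77 values changed sign, 33 of them called under at least 1 of the 2 scalings. After DSF + NSM against DMSO these 33 were ATP6V0A1 -0.32, ATP6V1B2 -0.36, ATP6V1F -0.15, LAMP1 -0.17, CD63 -0.11, CTSA -0.52, CTSL -0.28, CTSZ -0.74, GUSB -0.55, GABARAPL2 -0.52, BECN1 -0.10, UVRAG -0.15, WIPI2 -0.50, ATG5 -0.30 and ATG16L1 -0.64. From DSF to DSF + NSM they were ATP6V0D1 -0.082, ATP6V0E1 -0.44, ATP6V1B2 -0.49, ATP6V1F -0.19, LAMP1 -0.41, CD63 -0.26, CTSB -0.29, GUSB -0.58, HEXA -0.11, NBR1 -0.20, GABARAP -0.15, GABARAPL2 -0.36, BECN1 -0.10, UVRAG -0.33 and ATG16L1 -0.60. From NSM to DSF + NSM they were CTSL -0.50, GABARAP -0.39 and GABARAPL2 -0.36. The cause of the unequal sums was not tested. Library weights changed the sign of 24 values, of which those called in at least 1 of both fits were ATP6V0B (0.65), ATP6V1A (-0.31) and CTSZ (-0.14) after NSM, CTSZ from NSM to DSF + NSM (0.30), and the interaction of CTSZ (0.24) and ATP6V1G2-DDX39B (1.502, which rests on DMSO libraries listed at 0). After NSM, ATP6V0B ranged from -0.34 (without NSM replicate 2) to 0.65 and ATP6V1A from -0.38 to 0.23 (without NSM replicate 1), with 0.65 and -0.38 without NSM replicate 3.

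The number of members called after DSF was 34 with only the groups compared, 37 with library weights and 9 to 32 with 1 library left out (9 without DMSO replicate 1 or DSF replicate 2, 10 without DSF replicate 1, 11 without DMSO replicate 2, 32 without NSM replicate 3). With library weights 47 were called after NSM, 44 from DSF to DSF + NSM, 41 from NSM to DSF + NSM and 38 for the interaction. Shares of all genes with library weights or with only the groups compared are not given here. Whether members gained more calls than other genes in those fits therefore cannot be read from these counts. Without NSM replicate 3 the calls of all genes rose too, to 23.5% higher and 17.6% lower after DSF. With 1 library left out, 23 to 45 were called from DSF to DSF + NSM (45 without NSM replicate 3) and 13 to 32 for the interaction (32 without NSM replicate 3, and 13 to 15 without any 1 DMSO or DSF library or DSF + NSM replicate 1 or 2). Of 163 calls, 127 held in every fit that left out 1 library and 85 under every alternative.

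Deviations of libraries with the same number were at most weakly correlated (18 pairs, correlations -0.0644 to 0.2784, 2 above 0.1). The 2 above 0.1 were between NSM and DSF + NSM, for replicate 2 (0.118) and replicate 3 (0.278). With a replicate block, 18, 29, 38, 29, 25 and 22 members were called after DSF, NSM and DSF + NSM, from DSF, from NSM and for the interaction.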

Other observations

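Genes named in this paragraph are not members and had the largest called rise or fall of their list after NSM or DSF + NSM. No pathway was tested. SMPD1, acid sphingomyelinase, had means of 106 after DMSO, 402 after DSF, 480 after NSM and 320 after DSF + NSM, and rose by 2.08 ± 0.27 after NSM. NPC2, which binds cholesterol in the lysosome, rose by 1.84 ± 0.15 after DSF + NSM, and the phospholipase PLA2G15 by 1.86 ± 0.38. The sialic acid transporter SLC17A5 rose by 2.01 ± 0.17 after NSM. Lower were HGSNAT after DSF + NSM (-1.46 ± 0.18), and the genes of the mannose 6-phosphate tag, NAGPA after NSM (-2.21 ± 0.32) and GNPTAB after DSF + NSM (-1.78 ± 0.21). All of these directions were the same with equal sums.

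Among autophagy genes, CCPG1, a receptor for autophagy of the endoplasmic reticulum, had means of 693, 895, 4350 and 1522 in the order DMSO, DSF, NSM and DSF + NSM and rose by 2.51 ± 0.35 after NSM. TAX1BP1 rose by 1.69 ± 0.27 and the protease ATG4D by 1.99 ± 0.35 after DSF + NSM, whereas ATG4C had a change of -1.68 ± 0.37 and was called lower. WDR45, a relative of WIPI1, rose by 1.45 ± 0.22 after NSM. Among regulators, FNIP1 rose by 1.38 ± 0.26 after NSM and 1.40 ± 0.26 after DSF + NSM, FLCN by 0.97 ± 0.28 after DSF + NSM (0.19 with equal sums, limma adjusted p = 0.556), and FNIP2 (-0.74 ± 0.24, a limma call lost without DMSO replicate 3 or without DSF+NSM replicate 2, with adjusted p up to 0.0736), RRAGA (-1.12 ± 0.22) and, after NSM, ZKSCAN3 (-1.48 ± 0.40) were lower. With equal sums the changes after DSF + NSM were 1.21 for ATG4D, 0.91 for TAX1BP1 and 0.61 for FNIP1, the last with a limma adjusted p of 0.0609.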
